A study of Mus musculus with 16 samples.

Results

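Polyamine metabolism was followed through 8 genes: Odc1, Srm, Sms, Sat1, Amd1, Oaz1, Oaz2 and Azin1. Every probe annotated with one of these symbols was taken from the processed array values, which gave 9 of the 25697 probes on the array, whose probes carry 16590 gene names. Srm had 3 probes and Odc1, Sms, Sat1, Oaz1, Oaz2 and Azin1 had 1 each, while no probe was listed under Amd1. Of these, 8 probes for 6 genes passed the detection filter and were tested among 11024 probes, and the Sms probe was not above background on any of the 8 arrays.

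The arrays were Illumina bead arrays hybridised with RNA of mouse B cell lymphomas of strain C57B6. A set of 4, called Wrn tumours here, had the genotype Eµ-Myc with Wrn Dhel/Dhel, and 4 Eµ-Myc tumours had the genotype Eµ-Myc with no labelled Wrn change. Both genotypes thus carry Eµ-Myc, in which an immunoglobulin heavy chain enhancer drives the oncogene in the B lineage. Wrn is the DNA helicase lost in Werner syndrome, and Dhel denotes a deletion in its helicase domain. Tumours are numbered here 1 to 4 in each genotype by the order of their records, and the titles carry other numbers. Titles also add a letter of unstated meaning. It was L for Wrn tumours 1 and 3 and Eµ-Myc tumours 2 and 4, and E for Wrn tumours 2 and 4 and Eµ-Myc tumours 1 and 3. The labels give no ages and do not say that each tumour came from its own animal, so p-values measure the spread between these 8 samples, which may be technical.

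Polyamines are small positively charged molecules that bind nucleic acids and are needed for growth. Ornithine decarboxylase, encoded by Odc1, makes putrescine and is the rate-limiting enzyme of the pathway. Spermidine synthase, encoded by Srm, and spermine synthase, encoded by Sms, add aminopropyl groups that the S-adenosylmethionine decarboxylase Amd1 provides. Antizymes, encoded by Oaz1 and Oaz2, bind ornithine decarboxylase and send it to the proteasome, and the antizyme inhibitor Azin1 is an inactive relative of the enzyme that keeps antizyme away from it. The acetyltransferase Sat1 starts polyamine breakdown and export. Odc1 is a textbook target of Myc and has been studied as such in Eµ-Myc lymphoma.

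Promoter windows, which run from 250 bases before to 50 bases after a start site in the RefSeq table for GRCm38.p6, were matched for 6 of the 8 genes. Of the windows, 3 are shown: that of Odc1, whose signal was lowest in the tumour with the least Myc signal, that of Oaz2, which ran opposite to Srm and Azin1, and the 1 member window with the E-box hexamer CACGTG. Capitals mark CACGTG, a palindrome to which Myc and Max can bind, and the GC box GGGCGG, searched on both strands. The 2 motifs can share at most an edge base. Odc1 lies at chr12:17544623-17544922 on the plus strand, Oaz2 at chr9:65676298-65676597 on the plus strand and the first Sms window at chrX:157492238-157492537 on the minus strand.
Odc1: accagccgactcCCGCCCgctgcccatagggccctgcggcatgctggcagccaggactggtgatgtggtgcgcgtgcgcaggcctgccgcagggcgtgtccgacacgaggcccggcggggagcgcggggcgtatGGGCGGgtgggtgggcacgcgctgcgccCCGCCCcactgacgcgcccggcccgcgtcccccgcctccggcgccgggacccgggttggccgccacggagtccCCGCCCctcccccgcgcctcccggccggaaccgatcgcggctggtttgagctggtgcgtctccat
Oaz2: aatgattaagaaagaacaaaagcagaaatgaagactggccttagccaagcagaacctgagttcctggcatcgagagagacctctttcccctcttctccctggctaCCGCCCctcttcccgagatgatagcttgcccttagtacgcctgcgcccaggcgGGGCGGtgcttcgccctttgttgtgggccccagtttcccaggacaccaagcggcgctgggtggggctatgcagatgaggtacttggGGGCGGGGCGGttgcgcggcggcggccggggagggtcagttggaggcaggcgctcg
Sms: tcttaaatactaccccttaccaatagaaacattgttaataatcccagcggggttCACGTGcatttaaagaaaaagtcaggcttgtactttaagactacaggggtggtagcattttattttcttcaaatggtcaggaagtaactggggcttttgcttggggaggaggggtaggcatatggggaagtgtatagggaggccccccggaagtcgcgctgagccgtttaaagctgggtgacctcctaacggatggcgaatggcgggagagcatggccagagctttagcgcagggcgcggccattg
CACGTG was present in 1 of 7 member windows, in Sms, starting 196 bases before the start site, and in 7.15% of the 32851 windows of the table. At least 1 GC box was present in 5 of 7 member windows and in 35.7% of all windows. Odc1 and Oaz2 each held 4 GC boxes, this Sms window held none and the second Sms window, not shown, held 4. The Odc1 window was 78.0% G or C, and 1.94% of all windows reached that share, where the median was 52.7%. The pair of E-boxes classically described in Odc1 lies in its first intron, outside this window, so the absence of the hexamer here says nothing of Myc binding.

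Wrn signal, on the log2 scale of neqc-normalised signal used throughout, was 7.03, 7.48, 7.33 and 7.46 in Wrn tumours 1 to 4, against 8.06, 8.45, 8.21 and 7.56 in Eµ-Myc tumours 1 to 4. All 4 Wrn tumours lay below all 4 Eµ-Myc tumours, but the difference of -0.75 ± 0.22 did not pass over all probes (SE, limma adjusted p = 0.973). Whether the probe lies in the deleted part is not known here, and a second Wrn probe was not detected. Between 10607 and 11369 probes per array were detected, and correlations between tumours ran from 0.945 to 0.984. B cell identity was checked with 6 tested markers, all of them detected on all 8 arrays. Their summed signal lay between 11007 and 17913 in Wrn tumours and between 9081 and 12577 in Eµ-Myc tumours. All 6 were higher in Wrn tumours, with a median difference of 0.45, 2 of them at a limma unadjusted p under 0.05. The 6 tested macrophage markers were all lower in Wrn tumours, with a median of -0.528, 3 of them under 0.05. Of all probes 3.76% were, and none of these markers passed over all probes. Medians of the other marker lists, Wrn minus Eµ-Myc, ran from -0.917 (erythroid) to 0.0727 (proliferation). The Pax5 probe was not tested. One tumour stood apart in Myc itself: Myc signal was 8.77, 9.13, 8.50 and 8.73 in Wrn tumours 1 to 4, against 9.08, 6.92, 8.77 and 8.91 in Eµ-Myc tumours 1 to 4. Eµ-Myc tumour 2 was the low 1 of the 8, and the members' relations with Myc are given with and without it. The same tumour had the highest summed signal of the erythroid genes Hba-a1 and Alas2, at 25693 against 1502 to 16038 in the other 7 tumours. Its summed signal of 6 macrophage markers was also the highest, at 6843 against 3266 to 6239. Of the T cell receptor complex genes, Cd3d read 7.80 there against 4.77 to 5.84 in the other 7 tumours, and Cd3g 7.03 against 4.39 to 5.02. The summed signal of the 3 tested T cell markers was 761 there against 199 to 771, most of it from Cd2. Over the 8 tumours r with Myc was -0.87 for Cd3d and -0.91 for Cd3g, and 0.36 and 0.18 without this tumour. The part of these other cells, and of the B cell marker difference, in the results was not tested. In bulk tumour RNA, fewer cells of a type and less RNA per cell cannot be told apart.

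The first comparison asked how the synthesis enzymes stood in the 2 genotypes. Odc1 signal was 11.98, 11.79, 11.63 and 11.61 in Wrn tumours 1 to 4, against 11.81, 10.61, 11.98 and 11.92 in Eµ-Myc tumours 1 to 4. Odc1 lay within a narrow band in 7 tumours, with Eµ-Myc tumour 2 far below it, and the genotypes overlapped. Means were 11.75 ± 0.17 in Wrn tumours and 11.58 ± 0.65 in Eµ-Myc tumours (SD, n = 4 each). The difference, Wrn minus Eµ-Myc, was 0.17 ± 0.29 (SE, limma adjusted p = 0.986), with a 95% interval from -0.47 to 0.82. Without Eµ-Myc tumour 2 it was -0.15. In the deposited lumi intensities, which are linear, Odc1 read 4024, 3519, 3160 and 3117 in Wrn tumours, against 3564, 1542, 4035 and 3858 in Eµ-Myc tumours, with the same tumour lowest.

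Srm, the next enzyme of the path, was measured by 3 probes, numbered here by brightness. Srm probe 1 gave 11.85, 11.56, 11.77 and 11.62 in Wrn tumours 1 to 4, against 12.06, 11.07, 12.00 and 11.70 in Eµ-Myc tumours 1 to 4. Wrn tumours spread over little and sat inside the range of the Eµ-Myc tumours, which held both the highest value and the lowest. Means were 11.70 ± 0.13 in Wrn tumours and 11.71 ± 0.45 in Eµ-Myc tumours (SD, n = 4 each), a difference of -0.01 ± 0.23 (SE, limma adjusted p = 0.997) with a 95% interval from -0.51 to 0.50. Srm probe 3 gave 11.78, 11.26, 11.20 and 10.99 in Wrn tumours, against 11.80, 10.73, 11.63 and 11.15 in Eµ-Myc tumours, with means of 11.31 ± 0.34 and 11.33 ± 0.48. Srm probes 2 and 3 differed by -0.09 ± 0.20 and -0.02 ± 0.26 (SE, limma adjusted p = 0.986 and 0.995). All 3 probes placed Eµ-Myc tumour 2 lowest of the 8. Among the top 3 tumours each of them had Wrn tumour 1 and Eµ-Myc tumours 1 and 3, so the probes gave much the same order.

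Eµ-Myc tumour 2 was also the lowest of the 8 for Odc1, as for 1752 of the 11024 tested probes (15.9%). For Odc1 it lay 1.01 below the next lowest tumour, a gap reached by 26 tested probes (0.236%). The gaps were 0.49, 0.13 and 0.26 for Srm probes 1 to 3 and 1.58 for Myc. Odc1 and Srm were therefore low together in that tumour, Odc1 by more.

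**Figure D1:**
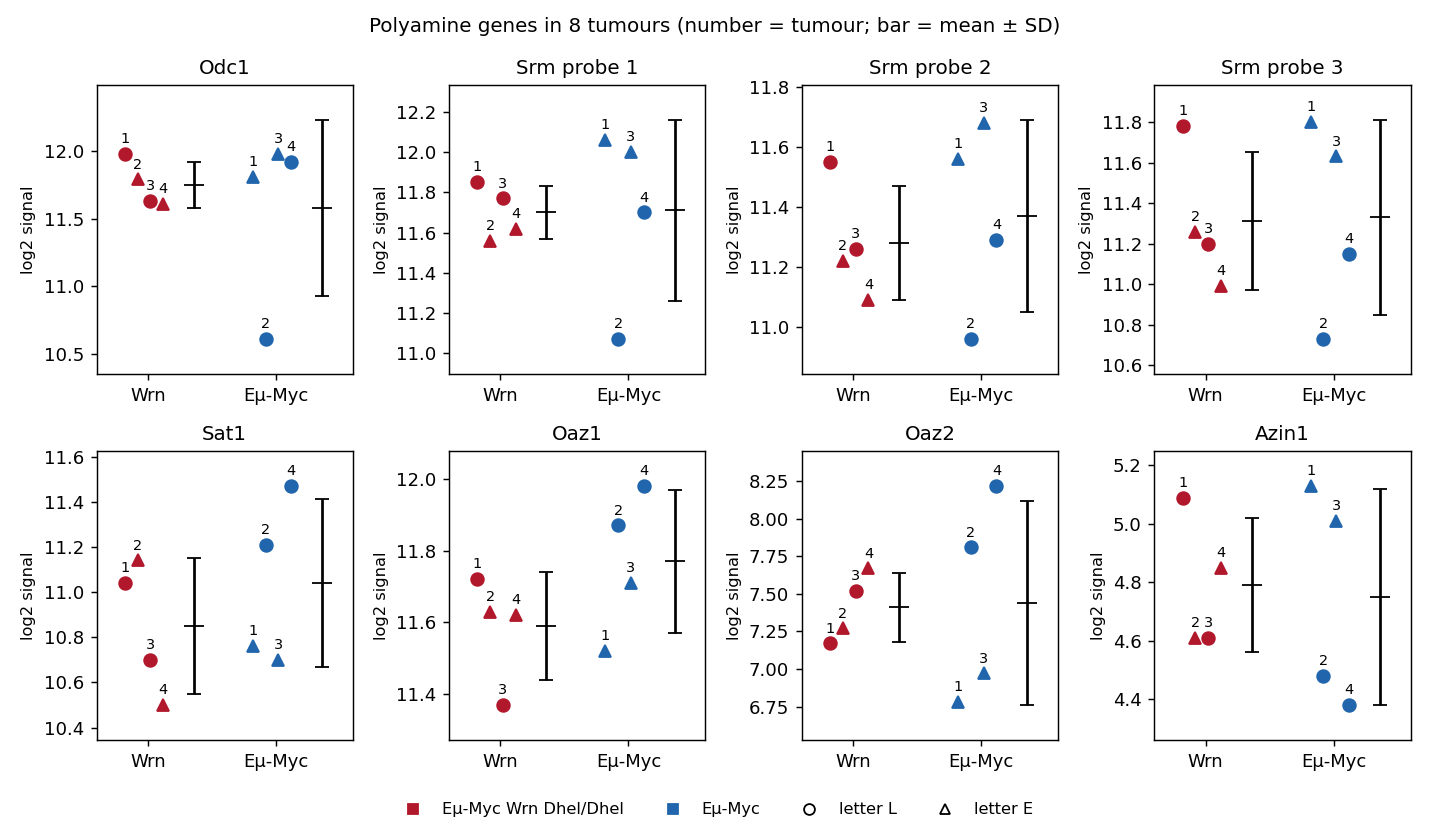
Log2 signal (neqc) of the 8 tested member probes, with Wrn tumours in red on the left and Eµ-Myc tumours in blue on the right of each panel, circles for letter L, triangles for letter E, tumour numbers above the points and bars for mean ± SD (n = 4). The genotypes overlap in every panel, and Eµ-Myc tumour 2 is lowest for Odc1 (10.61) and for all 3 Srm probes.

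For Sms, which turns spermidine into spermine, the probe was detected in 0 of 4 Wrn tumours and 0 of 4 Eµ-Myc tumours. The values ran from 4.16 to 4.33, the level of background on this scale, and no difference is given. No probe was listed for Amd1, but its copy Amd2 had 1. Amd2 is a close relative of Amd1 whose synonyms in the gene table include Amd1, so that a probe may read both, and it was counted among the other pathway genes. It gave 5.87, 5.92, 5.06 and 4.90 in Wrn tumours, against 5.61, 5.69, 5.61 and 5.80 in Eµ-Myc tumours. Wrn tumours split into a high pair and a low pair around the Eµ-Myc values, and the difference of -0.24 ± 0.25 did not pass (SE, limma adjusted p = 0.973).

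The antizymes differed as little between the genotypes. Oaz2 signal was 7.17, 7.27, 7.52 and 7.67 in Wrn tumours 1 to 4, against 6.78, 7.81, 6.97 and 8.22 in Eµ-Myc tumours 1 to 4. On this scale it had the widest range of the members, 2.71-fold over the 8 tumours, with both extremes in Eµ-Myc tumours. In the lumi intensities Oaz2 ran from 93.8 to 281.6 and the dim Azin1, whose range was wider there, from 3.1 to 19.1. Means were 7.41 ± 0.23 in Wrn tumours and 7.44 ± 0.68 in Eµ-Myc tumours (SD, n = 4 each), a difference of -0.03 ± 0.31 (SE, limma adjusted p = 0.993). Oaz1 signal was 11.72, 11.63, 11.37 and 11.62 in Wrn tumours, against 11.52, 11.87, 11.71 and 11.98 in Eµ-Myc tumours. Oaz1 had the narrowest range of the genes detected on every array, 1.52-fold, and differed by -0.18 ± 0.17 (SE, limma adjusted p = 0.973), with a 95% interval from -0.56 to 0.20. The gene table also lists a transcribed pseudogene of Oaz1, and reads of the 2 transcripts by this probe cannot be told apart here.

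Azin1, which opposes antizyme, was close to background. It was detected in 2 of 4 Wrn tumours, 1 and 4, and in 2 of 4 Eµ-Myc tumours, 1 and 3. Signal was 5.09, 4.61, 4.61 and 4.85 in Wrn tumours, against 5.13, 4.48, 5.01 and 4.38 in Eµ-Myc tumours. The difference was 0.04 ± 0.22 (SE, limma adjusted p = 0.988), and the offset of the log scale understates changes at such levels. In the deposited lumi values it was 0.38 and in the GUI values 0.15.

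Sat1, at the head of breakdown, gave 11.04, 11.14, 10.70 and 10.50 in Wrn tumours 1 to 4, against 10.76, 11.21, 10.70 and 11.47 in Eµ-Myc tumours 1 to 4. The highest tumour was Eµ-Myc tumour 4 and the lowest Wrn tumour 4. Means were 10.85 ± 0.30 in Wrn tumours and 11.04 ± 0.37 in Eµ-Myc tumours (SD, n = 4 each), a difference of -0.19 ± 0.23 (SE, limma adjusted p = 0.975) with a 95% interval from -0.70 to 0.32. In the lumi intensities Sat1 read 2097, 2245, 1645 and 1434 in Wrn tumours, against 1718, 2347, 1651 and 2826 in Eµ-Myc tumours.

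Across the genotypes, then, 0 of 8 member probes passed limma's test at an adjusted p under 0.05, beside 4 of all 11024 tested probes (0.0363%), and 0 of 8 reached an unadjusted p under 0.05, beside 3.76% of all probes. The deposited lumi and GUI values also gave 0 of 8 by either criterion. For 8 of 8 the genotypes overlapped, whereas 2.21% of all tested probes did not overlap. In sign, 2 member probes were higher in Wrn tumours and 6 lower, with a median difference of -0.02, against 0.01 for all probes. The median size of difference was 0.0655 for the members and 0.163 for all probes. The intervals still allow differences of up to 0.82 in Odc1 and -0.71 in Oaz2, so equality of the genotypes is not shown.

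The second comparison set tumours with the letter L against those with E, with genotype in the model. Oaz2 had means of 7.68 ± 0.44 in L tumours and 7.17 ± 0.39 in E tumours (SD, n = 4 each). L minus E was 0.51 ± 0.28 (SE, limma adjusted p = 0.742), and without Eµ-Myc tumour 4 it was 0.30. Sat1 averaged 11.11 ± 0.32 in L tumours and 10.78 ± 0.27 in E tumours, a difference of 0.33 ± 0.21 (SE, limma adjusted p = 0.777). Odc1 averaged 11.53 ± 0.64 in L tumours and 11.80 ± 0.15 in E tumours, a difference of -0.26 ± 0.29 (SE, limma adjusted p = 0.863) that was 0.07 without Eµ-Myc tumour 2. Srm probes 1 to 3 differed by -0.21, -0.12 and -0.20 and Oaz1 by 0.11. Azin1 differed by -0.26, but by -0.93 in the deposited lumi values and -0.69 in the GUI values, where Oaz2 differed by 0.56 and 0.57. Of the 8 probes, 0 passed, beside 2 of 11024 (0.0181%), and 0 reached an unadjusted p under 0.05, beside 7.44% of all probes. The letters overlapped for 8 of 8 members, whereas they did not for 5.01% of all tested probes. Markers of stroma and granulocytes differed by more in the median, while the other marker lists had medians from -0.24 (endothelium) to 0.491 (T cells). Of the stromal genes, 5 of 5 were lower in L tumours, 4 of them at an unadjusted p under 0.05, with a median of -1.09. Their summed signals were 1191 to 1809 in L tumours and 1939 to 4146 in E tumours. The 4 tested granulocyte genes were lower too, 3 at an unadjusted p under 0.05, with a median of -1.74 and summed signals of 138 to 373 in L tumours and 487 to 2445 in E tumours. None of these 9 genes passed limma's test over all probes, and their part in the members' differences was not tested.

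Within each genotype, the letters could be compared as pairs of tumours. Within Eµ-Myc tumours, Oaz2 was 1.14 higher in the L pair than in the E pair, and Sat1 and Oaz1 were 0.61 and 0.31 higher, with both L tumours above both E tumours for each of these genes. Both L tumours lay below both E tumours for Azin1 and for all 3 Srm probes, with differences, L minus E, of -0.64 for Azin1 and of -0.64, -0.49 and -0.77 for Srm probes 1 to 3. The pairs thus did not overlap for 7 of 8 member probes, which share tumours and include 3 probes of 1 gene, beside 34.1% of all tested probes. Azin1, 1 of these 7, passed the detection filter only through tumours where it was high. Those include both of these E tumours and neither L tumour. Within Wrn tumours the same differences were -0.12 for Oaz2, 0.05 for Sat1, -0.08 for Oaz1, 0.12 for Azin1, and 0.22, 0.25 and 0.36 for Srm probes 1 to 3. Both L tumours lay above both E tumours for Srm probes 1 and 2 there, 2 of 8 probes beside 36.9% of all tested probes, and the pairs overlapped or met for the other members. Both shares were computed after the data were seen. For Odc1 the pairs overlapped in both genotypes, with differences of 0.11 in Wrn tumours and -0.63 in Eµ-Myc tumours.

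A genotype by letter interaction tests whether these differences differ. It was -1.26 ± 0.39 for Oaz2 and 1.13 ± 0.41 for Srm probe 3 (SE), both at an unadjusted p under 0.05 and neither past the test (limma adjusted p = 0.937 for each). Over all probes 0 of 11024 passed (0.0%) and 554 reached an unadjusted p under 0.05 (5.03%), against 2 of the 8 members. In the lumi and the GUI values 3 of 8 did, beside 5.22% and 5.36% of all probes, with Azin1 as the third. Azin1 was detected in only 4 of the 8 tumours. The Azin1 interaction was 0.75 ± 0.37 on the neqc scale (SE, limma adjusted p = 0.937), but 2.31 in the lumi values and 1.88 in the GUI values (limma adjusted p = 0.906 and 0.851). With median scaling in place of quantile normalization, the median interaction over all probes was -0.17 in place of 0.0276, and the interaction was -1.48 for Oaz2 and 1.01 for Srm probe 3. With 2 tumours of each letter in a genotype, this contrast also sets the tumours numbered 1 and 3 against those numbered 2 and 4, and the 2 readings cannot be told apart. For Myc signal, L minus E was -0.30 in Wrn tumours and -1.01 in Eµ-Myc tumours, whose L pair holds Eµ-Myc tumour 2, and the part of Myc in these differences was not tested.

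**Figure D2:**
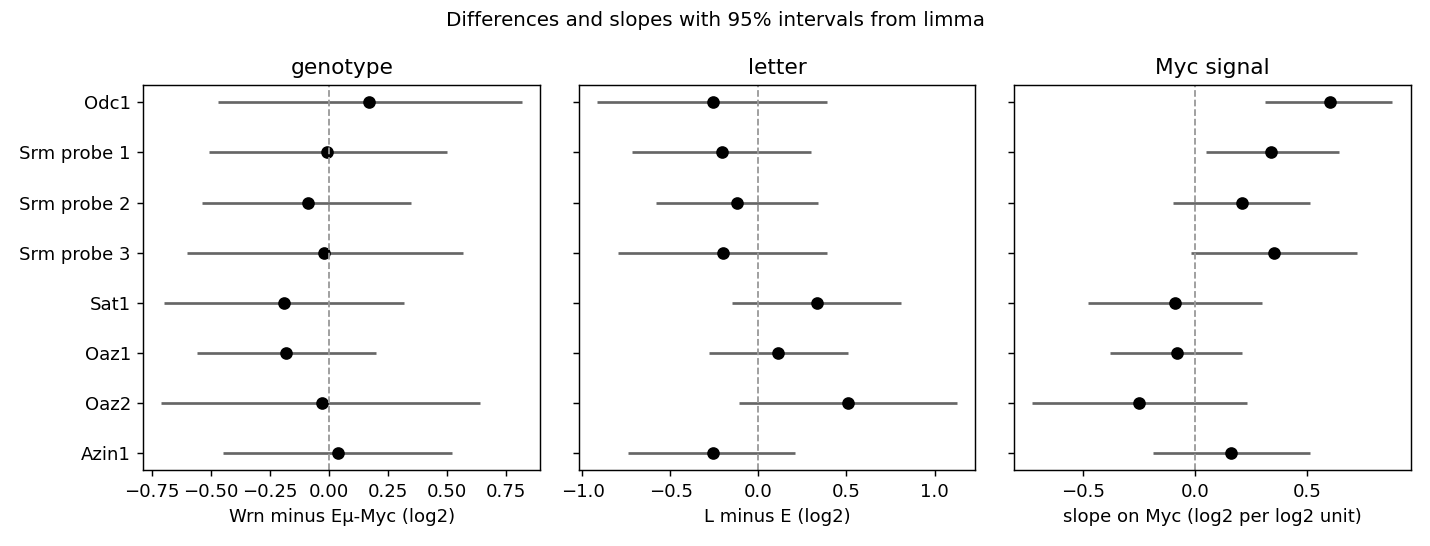
Estimates for the 8 tested member probes (points) with 95% intervals from limma (lines): the difference Wrn minus Eµ-Myc on the left, L minus E in the middle, and the slope on Myc signal on the right, all on log2 scales. Genotype and letter intervals include 0 for all 8 probes, and the slopes of Odc1 (0.60) and Srm probe 1 (0.34) have intervals above 0 before adjustment over all probes.

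The third comparison asked how the members stood against Myc signal in each tumour. Odc1 had the steepest slope of the members, 0.60 ± 0.13 log2 units per log2 unit of Myc (SE), which did not pass over all probes (limma adjusted p = 0.116). Without Eµ-Myc tumour 2 the slope was 0.19. Its Pearson r was 0.93 (exact two-sided permutation p = 0.0345, adjusted p = 0.648 over all tested probes) and its Spearman rho 0.52 (exact p = 0.197). The r of Odc1 with Myc was exceeded by 0.154% of tested probes. It rests on Eµ-Myc tumour 2: r was 0.28 without that tumour, and 0.41 without the 2 tumours farthest from the median of Myc, Eµ-Myc tumour 2 and Wrn tumour 2. Among the other 7 tumours Myc signal ran from 8.50 to 9.13 and Odc1 signal from 11.61 to 11.98, a narrow range in which to see any relation.

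Srm probe 1 had a slope of 0.34 ± 0.14 (SE, limma adjusted p = 0.443), with r = 0.79 (exact permutation p = 0.0653, adjusted p = 0.657) and rho = 0.31 (exact p = 0.462). Without Eµ-Myc tumour 2 its r was -0.01, and without the 2 farthest tumours it was 0.45. Srm probes 2 and 3 had r of 0.59 and 0.65 over the 8 tumours, and of 0.10 and 0.24 without Eµ-Myc tumour 2. With that tumour left out the slope was -0.01 in place of 0.34 for Srm probe 1, 0.10 in place of 0.21 for Srm probe 2 and 0.36 in place of 0.35 for Srm probe 3. The r of all 3 probes was lower in the 7 tumours. The slope of Srm probe 3 was about the same but less certain, with a limma unadjusted p of 0.568 in place of 0.0593.

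Over all 8 tumours the other members stood less close to Myc. Azin1 had r = 0.40, Sat1 -0.20, Oaz1 -0.31 and Oaz2 -0.38 (exact permutation p between 0.362 and 0.732). Without Eµ-Myc tumour 2, Sat1 was at 0.44 and Oaz1 at 0.30, both of the opposite sign, while Oaz2 was at -0.24 and Azin1 at 0.05. Sat1 and Oaz1 then stood above Odc1, at 0.28, so the ranking of the members also rests on that tumour. These 8 relations with Myc were computed on the same tumours, and in each genotype 4 tumours are too few for an r of their own. In the slopes, 0 of 8 members passed limma's test, beside 13 of 11023 probes (0.118%), all 13 with a negative slope. An unadjusted p under 0.05 was reached by 2 of 8, Odc1 and Srm probe 1, beside 9.16% of all probes. By permutation of r, 0 probes passed with Myc (0.0%) and 7.63% reached an unadjusted p under 0.05. Whether the Myc probe reads the transgene, the animal's own gene or both is not known here, and a second Myc probe was not detected on any array.

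A list of 10 established Myc-bound genes, each read by its brightest tested probe, was set beside the members. Of these 9 were tested and 8 had a positive slope, with a median of 0.0778 log2 units per unit of Myc, against 0.0159 for all probes. Nme1 had the 1 negative slope, -0.16, with r = -0.51, and 0.09 without Eµ-Myc tumour 2. Npm1, Eif4e and Fbl had r of 0.05, 0.18 and 0.42, and of 0.16, 0.01 and 0.01 without that tumour. The r of Ncl and Ldha, 0.07 each, was -0.42 and -0.25 without Eµ-Myc tumour 2. The mitochondrial chaperone Hspd1 had the highest r of these, 0.81, and 0.24 without Eµ-Myc tumour 2. Cad, which starts pyrimidine synthesis, had r = 0.65, and 0.22 without that tumour, and the nucleolar gene Nop56 had 0.54, and 0.43 without it. Of the 9 genes 0 passed limma's test and 1 reached an unadjusted p under 0.05, beside 9.16% of all probes.

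**Figure D3:**
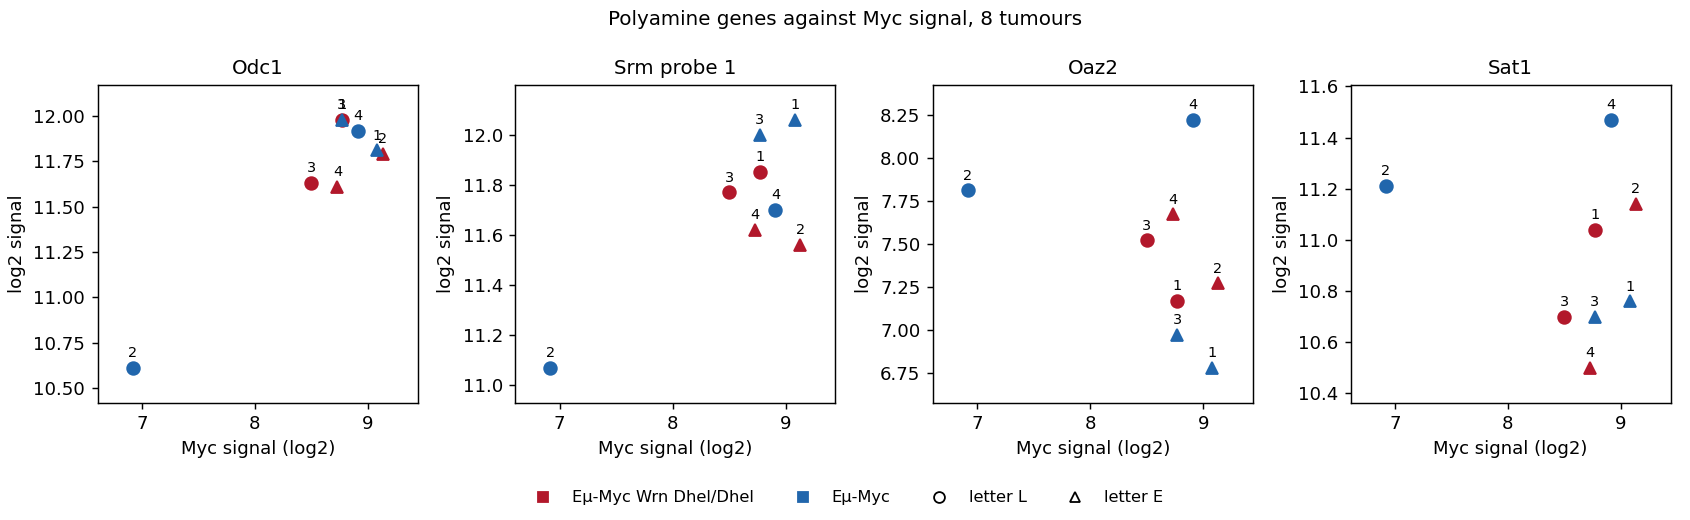
Log2 signal of Odc1, Srm probe 1, Oaz2 and Sat1 (vertical axes) against Myc log2 signal (horizontal axes) in the 8 tumours, red for Wrn and blue for Eµ-Myc, circles for L and triangles for E, with tumour numbers. Eµ-Myc tumour 2, at a Myc signal of 6.92, stands alone at the left, and the other 7 tumours lie between 8.50 and 9.13.

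Members were then set against each other over the 8 tumours, in 25 pairs of probes of different genes, a set chosen after the data were seen. Odc1 and Srm probe 1 had r = 0.87 (exact permutation p = 0.019, adjusted p = 0.732 over all tested probes) and rho = 0.71 (exact p = 0.0576), and r = 0.45 without Eµ-Myc tumour 2. With Srm probe 2 the r of Odc1 was 0.76 and stayed at 0.76 without that tumour, with rho = 0.90 (exact p = 0.00456, r adjusted p = 0.732). Without the 2 tumours farthest from the median of Odc1, Eµ-Myc tumours 2 and 3, r was 0.29 with Srm probe 1 and 0.67 with Srm probe 2.

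The antizyme Oaz2 and the antizyme inhibitor Azin1 ran opposite to each other, with r = -0.85 (exact permutation p = 0.00856, adjusted p = 0.757 over all tested probes) and rho = -0.90 (exact p = 0.00456). A lower r with Oaz2 was found for 0.454% of tested probes. The relation did not rest on 1 tumour: r lay between -0.91 and -0.78 with each tumour left out in turn, and was -0.69 without Eµ-Myc tumours 1 and 4, the 2 farthest from the median of Oaz2. Azin1 was detected in only 4 tumours. In the lumi values, which do not add an offset but hold the same dim readings, r was -0.88. Oaz2 also ran opposite to Srm, with r = -0.63 for probe 1 (exact permutation p = 0.0889) and -0.71 for probe 2 (exact permutation p = 0.0486), each with an adjusted p of 0.813. For Srm probe 3, r was -0.79 (exact permutation p = 0.02, adjusted p = 0.783), with rho = -0.90 (exact p = 0.00456), and r = -0.92 without the 2 farthest tumours. Srm and Azin1 ran together, with r = 0.69, 0.73 and 0.81 for Srm probes 1 to 3 (exact permutation p = 0.0414, 0.05 and 0.0215, adjusted p = 0.913 for each). For probe 3 it was 0.71 in the lumi values. The 2 antizyme genes did not follow one another closely, with r = 0.56 (exact permutation p = 0.146). Oaz1 was nearer to Sat1, at r = 0.75 (exact permutation p = 0.0326, adjusted p = 0.512) and rho = 0.79 (exact p = 0.0279). With each of these members set against all probes, 0 probes passed by permutation. The share at an unadjusted p under 0.05 was 6.69% for Odc1, 5.68% for Srm probe 1, 9.15% for Sat1, 6.79% for Oaz1, 6.07% for Oaz2 and 5.34% for Azin1.

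**Figure D4:**
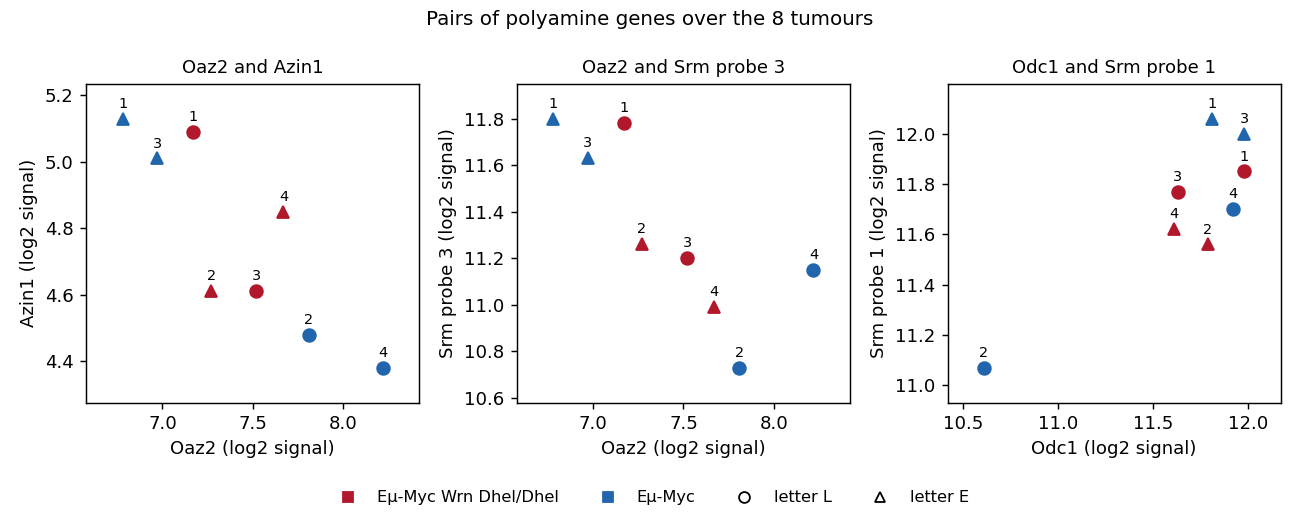
Log2 signal of Azin1 against Oaz2, Srm probe 3 against Oaz2 and Srm probe 1 against Odc1 in the 8 tumours, red for Wrn and blue for Eµ-Myc, circles for L and triangles for E, with tumour numbers. Tumours high in Oaz2 are low in Azin1 (r = -0.85) and in Srm probe 3 (r = -0.79), whereas Odc1 and Srm probe 1 (r = 0.87) share the low Eµ-Myc tumour 2. Azin1 was detected in only 4 of the 8 tumours.

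The probes with the tumour pattern most like that of a member were named by the highest Pearson r over the 8 tumours, as a description. Nearest to Odc1 were the ribosomal protein gene Rps2 (r = 0.98), the RNA helicase gene Ddx24 by each of 2 probes (0.97 and 0.96), the Fas-associated factor gene Faf1 (0.96) and Nudt9 (0.96). Without Eµ-Myc tumour 2 the r with Odc1 was 0.93 for Faf1, 0.82 for Rps2, and 0.69 to 0.75 for the other 3 probes. Nearest to Srm probe 1 were Tarbp2, a partner of Dicer (0.96), the phosphatase gene G6pc3 (0.94), the branched-chain aminotransferase gene Bcat1 (0.92), Ddx24 (0.92) and the adducin gene Add1 (0.92). Nearest to Sat1 were Lrrc20 (0.97), the Rag GTPase gene Rragd (0.97), Thrap3 (0.97), the Golgi SNARE gene Gosr2 (0.95) and the DNA polymerase gene Poln (0.94). These 5 lay between 0.94 and 0.97 without Eµ-Myc tumour 2, on tumours already used to pick them. Lrrc20, Rragd, Thrap3 and Poln were dim, with signal between 4.46 and 6.43. Rragd signal was 5.23, 5.58, 4.90 and 4.69 in Wrn tumours 1 to 4, against 4.94, 5.79, 4.87 and 6.43 in Eµ-Myc tumours 1 to 4, highest like Sat1 in Eµ-Myc tumour 4 and lowest in Wrn tumour 4.

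Around the members, 30 further genes of supply, salvage, breakdown, hypusination and transport were listed, of which 22 had a probe and 12 were tested. Each was read by its brightest tested probe. Smox, Mtap, Eif5a and Mat2b had 2 tested probes each, and values of the dimmer one are not given here. Between genotypes 5 were higher in Wrn tumours and 7 lower, 0 of 12 passed limma's test and 0 reached an unadjusted p under 0.05, with a median difference of -0.0914 against 0.0068 for all probes. Spermine oxidase, encoded by Smox, had the largest difference of the 12. Its signal was 5.57, 6.41, 5.74 and 6.55 in Wrn tumours 1 to 4, against 6.13, 6.54, 7.31 and 6.20 in Eµ-Myc tumours 1 to 4, with Eµ-Myc tumour 3 highest. Smox differed by -0.47 ± 0.31 (SE, limma adjusted p = 0.973), and by -0.22 without that tumour. Of the methionine salvage enzymes, Apip differed by -0.39 ± 0.32, Adi1 by 0.35 ± 0.35 and Enoph1 by -0.27 ± 0.31, and the ornithine aminotransferase Oat by 0.17 ± 0.18 (limma adjusted p = 0.973 for each). Adi1 was -0.01 without Eµ-Myc tumour 2, and Enoph1 0.08 without Eµ-Myc tumour 4.

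Against Myc, 7 of these 12 genes had a positive slope and 5 a negative one, with a median of 0.0333. An unadjusted p under 0.05 was reached by 2 of 12, beside 9.16% of all probes, and 0 passed limma's test. The 2 were Adi1 and Mtap, enzymes of methionine salvage, which recycles the methylthioadenosine that spermidine and spermine synthases release. Adi1 signal was 10.54, 10.51, 10.16 and 9.87 in Wrn tumours 1 to 4, against 10.54, 8.87, 9.83 and 10.47 in Eµ-Myc tumours 1 to 4, lowest in Eµ-Myc tumour 2. Its slope on Myc was 0.74 ± 0.15 (SE, limma adjusted p = 0.0924), with r = 0.91. Without that tumour its slope was 0.85 (limma unadjusted p = 0.162) and its r 0.58. Mtap, which cleaves methylthioadenosine, had a slope of 0.46 ± 0.15 (SE, limma adjusted p = 0.319), with r = 0.79. Without Eµ-Myc tumour 2 the Mtap slope was 0.60 (limma unadjusted p = 0.319) and its r 0.43. Eif5a, the translation factor that carries hypusine, which is made from spermidine, had a slope of 0.30 ± 0.21, and Apip, Oat and Arg1 had slopes of -0.36 ± 0.23, -0.17 ± 0.13 and -0.67 ± 0.54 (limma adjusted p between 0.775 and 0.867). With Eµ-Myc tumour 2 left out these slopes were 0.63 for Eif5a, -1.13 for Apip, -0.15 for Oat and -1.10 for Arg1 (limma unadjusted p between 0.196 and 0.771). Between letters, Smox differed by -0.59 ± 0.26, L minus E, with an unadjusted p of 0.0488 (limma adjusted p = 0.664), and Mat2b, Enoph1 and Oat by 0.41, 0.47 and 0.27, with 0 of 12 past the test.

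**Figure D5:**
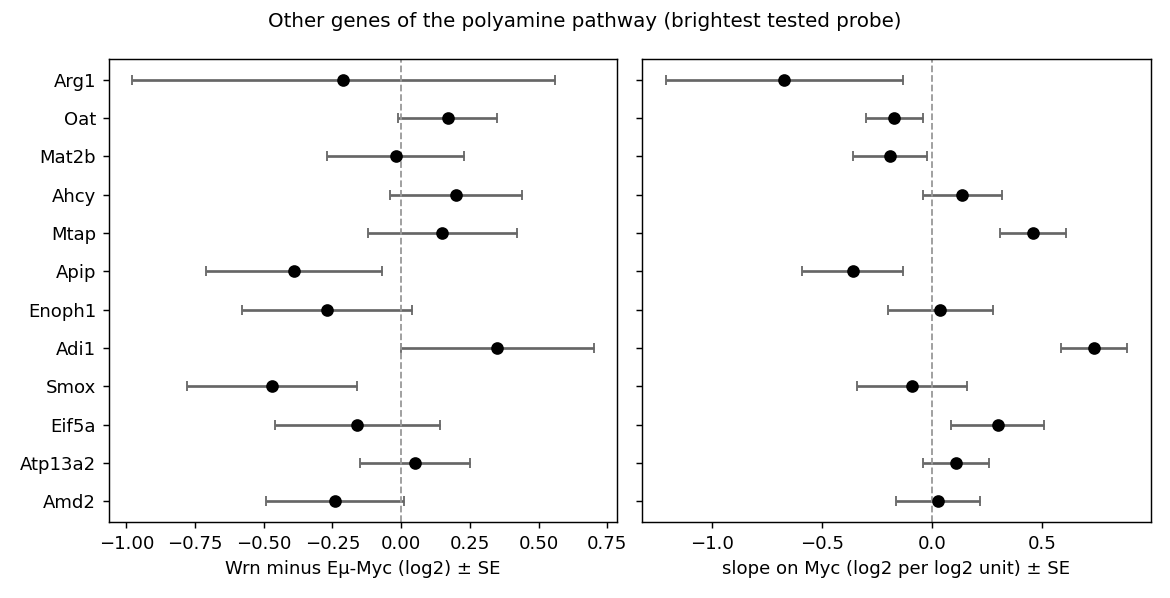
For the 12 tested further pathway genes, each by its brightest tested probe, the difference Wrn minus Eµ-Myc (left) and the slope on Myc signal (right) in log2 units, with SE bars from limma (8 tumours). Smox (-0.47) and Apip (-0.39) have the lowest genotype differences, and Adi1 (0.74) and Mtap (0.46) the highest slopes.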

How the data were processed

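Values of 8 tumours were deposited in 16 records, each tumour under 2 processings, and each was counted once. Per the file headers, the non-normalized table holds each probe's average bead intensity and its detection p-value, as deposited by the authors. The deposited lumi table holds a linear intensity that was background subtracted and quantile normalized, judged from its values, with 26.3% to 26.4% below 0. The deposited GUI table holds a score whose square root lies within 0.0102 of log2 of the lumi intensity above 1000. The design had assumed a log2 scale for this score, and its square root was adopted after the values were seen. Record titles name the processing as Illumina GUI or Bioconductor lumi R and give no versions or settings.

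Probe names differ between the tables, which were joined by each probe's ranks on the 8 arrays, 25697 one to one. The ratio of the best to the next-best distance was at most 0.143, and matching on 4 arrays alone gave the same partner for 99.98%. Symbols came from the platform annotation, updated to GRCm38.p6. Of the probes 23978 had 1 symbol and 1719 none.

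Signal was processed with neqc (limma 3.58.1, R 4.3.3), with an offset of 16, quantile normalization and log2, so changes of dim probes are understated. Testing covered probes with a detection p under 0.01 on 4 or more arrays, with lmFit and eBayes, two-sided, with Benjamini-Hochberg adjustment over all tested probes. The model fitted was genotype, letter with genotype, their interaction, or a slope on the brightest Myc probe. Correlations had two-sided exact permutation p-values from all 40320 orders, adjusted over all tested probes. Named were all member probes, further pathway genes with the lowest p (6 by genotype, 6 by Myc, 4 by letter), and the 5 probes most like Odc1, Srm and Sat1. Members and lists were chosen with earlier results of these data known. Each listed gene, cell markers included, was read by its brightest tested probe. Alternatives were the deposited values, another offset, scaling, filters, array weights, a replicate block, covariates, 1 probe per gene and each tumour left out. The genotype and Myc fits were also run on simulated data with larger differences and slopes than those of the members. Recovery of differences and slopes of the members' size was not tested. Precision is limited by the number of arrays. Python 3.11.15 with numpy 2.4.6, pandas 2.3.3, scipy 1.17.1 and matplotlib 3.10.9 was used. Protein sequences were not used here.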

Additional observations from a re-analysis of the deposited data

Results flagged for a closer look

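The signals of 20 probes, those of the tested members, Amd2, Myc, Wrn and the named pathway genes, were checked in both genotypes, 40 groups of 4 tumours, for a tumour far from the other 3. The gap to the nearest other tumour, as a ratio to the whole range, passed Dixon's 95% critical value in 3 groups, where chance marks about 1 in 20. Odc1 in Eµ-Myc tumour 2 was one, at a ratio of 0.871, with 10.61 against 11.81 to 11.98 in the other Eµ-Myc tumours. Myc in the same tumour was another, at 0.854, with 6.92 against 8.77 to 9.08. The third was Eif5a in Wrn tumour 4, at 0.836, with 11.67 against 12.71 to 12.91 in the other Wrn tumours.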

How the results depend on the processing

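None of the 55 results on single genes (members, Myc, Wrn and named pathway genes) passed the test in any alternative run, with a lowest adjusted p of 0.0684. Apart from leaving out tumours, 2 of 488 values changed direction, both with array weights: the genotype difference of Oaz2 at 0.07 and of Azin1 at -0.09. With each tumour left out, 29 of 440 did. Genotype differences then ran from -0.15 to 0.31 for Odc1, from -0.22 to 0.11, -0.23 to 0.01 and -0.21 to 0.14 for Srm probes 1 to 3, from -0.25 to 0.23 for Oaz2, from -0.08 to 0.17 for Azin1, from -0.14 to 0.58 for Myc, from -0.01 to 0.55 for Adi1 and from -0.42 to 0.08 for Enoph1. Letter differences ran from -0.45 to 0.07 for Odc1 and from -0.31 to 0.00 and -0.25 to 0.02 for Srm probes 1 and 2. The interaction ran from -0.29 to 1.70 for Myc and from -0.60 to 0.29 for Wrn. Slopes on Myc ran from -0.01 to 0.41 for Srm probe 1, from -0.15 to 0.67 for Sat1, from -0.12 to 0.25 for Oaz1 and from -0.45 to 0.61 for Wrn. The cause was not tested.

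Over all probes, the 4 genotype calls became 1 with no detection filter and with detection on all 8 arrays, 2 with array weights, 0 with the brightest probe of each gene (290 at an unadjusted p under 0.05), and 1 to 6 with a tumour left out. The replicate block, which pairs tumours by their number in record order, gave 2 calls. Same-numbered tumours did not deviate together (correlations of -0.214 to -0.00374), and 0 of 4 Wrn tumours correlated best with its own number. Same-numbered tumours always carry opposite letters and the letter was not removed from these deviations, so this cannot exclude a pairing. The numbers are no label of the series, and a pairing by title number was not checked. The 2 letter calls became 0 in the lumi values, the GUI values, with an offset of 50, with no filter and with detection on all 8 arrays (670 to 1645 at an unadjusted p under 0.05), 1 with median scaling and with the brightest probe of each gene, and 0 to 8 with a tumour left out. The 0 interaction calls became 1 in the lumi and the GUI values, and 0 to 2 with a tumour left out, where a lone tumour is taken to vary like the others. The 13 slopes on Myc became 3 in the lumi values, 2 in the GUI values and with median scaling, and 4 with detection on all 8 arrays. They ran from 0 to 35 with a tumour left out, at 0 when Eµ-Myc tumour 2 was left out (289 at an unadjusted p under 0.05), 2 for Eµ-Myc tumour 1, 21 for Eµ-Myc tumour 3, 26 for Wrn tumour 4 and 35 for Wrn tumour 3. Not run were other Myc probes, since none was detected, and a slide block, since no slide is named. Dim signal limits Azin1, Sms and Amd2.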

Other observations

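A pair of further pathway genes, chosen after their values were seen, had an interaction of genotype and letter at an unadjusted p under 0.05, as 5.03% of all probes did. Ahcy, which hydrolyses S-adenosylhomocysteine, gave 7.76, 7.16, 7.41 and 7.24 in Wrn tumours 1 to 4, against 7.56, 6.98, 7.55 and 6.66 in Eµ-Myc tumours 1 to 4. Both L tumours lay above both E tumours among Wrn tumours and below them among Eµ-Myc tumours. The interaction was 1.12 ± 0.35 (SE, unadjusted p = 0.0124, limma adjusted p = 0.937). Arg1, which makes ornithine from arginine, gave 4.24, 6.65, 6.38 and 8.35 in Wrn tumours, against 5.03, 7.58, 7.07 and 6.79 in Eµ-Myc tumours, with an interaction of -3.33 ± 1.23 (SE, unadjusted p = 0.0248, limma adjusted p = 0.937). For Arg1 the letter pairs overlapped among Eµ-Myc tumours, and among Wrn tumours both L tumours lay below both E tumours.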
